A study of Mus musculus with 6 samples.

Results

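Of the 25631 genes listed in the deposited table for mouse oocytes, 10 were taken by symbol as genes of endoplasmic reticulum (ER) stress sensing and ER protein folding, and all 10 were in the table. They were the stress sensors Ern1 and Atf6, the transcription factors Atf4, Xbp1 and Ddit3, the lectin chaperones Calr and Canx, and the disulfide isomerases Pdia3, Pdia4 and Pdia6. The values were FPKM, fragments of a gene scaled by its transcript's length and by the size of the library, so that levels can be compared between genes. The data were RNA sequencing of oocytes from naturally aged female ICR mice. There were 3 libraries of an untreated control group and 3 of a group given aminophylline in drinking water. The paper describes a week of the drug in its aged mice, then 3 weeks of water alone. Its account of the sequencing does not repeat this timing. Below, values with aminophylline are those of the treated group, whether or not the drug was still present. Aminophylline is a theophylline derivative that inhibits phosphodiesterases without being specific for one of them. All mice, the controls included, had been injected with equine chorionic gonadotropin, and oocytes were taken by puncturing large antral follicles. No young mice were among these libraries, and the sources used here do not say how many mice or oocytes a library held. The question was how the oocyte transcriptome of aged mice differs with aminophylline.

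Proteins that enter the ER fold with the help of chaperones, of lectins that hold glycoproteins, and of enzymes that form and rearrange disulfide bonds. When unfolded proteins collect there, the sensors IRE1 (the product of Ern1), ATF6 and PERK (the product of Eif2ak3) start the unfolded protein response, in which ATF6, spliced XBP1 and ATF4 act as transcription factors on chaperone genes and on stress genes such as Ddit3. Growing oocytes secrete the zona pellucida glycoproteins, which carry glycans and disulfide bonds and pass through this folding machinery.

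The stress signal works through short sequences, and 2 kinds are shown because they tie the sensors to the other genes. The first is the stretch of Xbp1 mRNA that the nuclease of Ern1 cuts out, which shifts the reading frame so that the active factor is made. In the longest of the 3 GENCODE M21 transcripts that hold them, of 2129 bases, these are the 26 bases from 815 to 840, given here in capitals with 20 bases on each side.
Xbp1: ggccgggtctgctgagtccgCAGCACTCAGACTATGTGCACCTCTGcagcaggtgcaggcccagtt
FPKM per gene counts spliced and unspliced Xbp1 together, so the splicing itself was not measured in these data.

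The second is the ER stress response element (ERSE), spelled CCAAT, 9 of any base and CCACG, the site through which ATF6 and the factor NF-Y act on chaperone genes. It was searched on both strands in the 250 bases before the gene start in RefSeq's promoters (GRCm38.p6), which held 9 of the 10 genes and lacked Atf6. A match was found in 3 of these 9, against 37 of all 32851 promoters (0.113%). The matches are given in capitals, each in its gene's direction with 20 bases on either side.
Calr (chr8:84847055-84847113, minus strand): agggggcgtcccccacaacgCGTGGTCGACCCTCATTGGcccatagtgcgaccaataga
Canx (chr11:50325780-50325838, minus strand): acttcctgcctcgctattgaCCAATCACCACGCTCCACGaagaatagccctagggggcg
Pdia6 (chr12:17266471-17266529, plus strand): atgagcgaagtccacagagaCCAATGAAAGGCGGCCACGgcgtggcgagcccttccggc
The match began 162 bases before the start of Calr, where it lay on the opposite strand, 145 bases before Canx and 98 bases before Pdia6. None of the 9 windows held ERSE-II (ATTGG, 1 of any base and CCACG, which shares the letters CCACG with ERSE and was in 0.0304% of all promoters), the XBP1 and ATF6 core TGACGTGG (0.563%) or the ATF4 and CHOP element TGATGNAA (3.45%). These are matches of letters and not measured binding.

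The 6 libraries held 14112341 to 33641283 reads, with control 2 the shallowest. Of all genes, 10340 reached FPKM 1 in 3 or more libraries and were tested with limma on log2(FPKM + 1). The adjusted p was under 0.05 for none of them (0%), with 456 genes higher and 294 lower at an unadjusted p under 0.05, and the smallest adjusted p was 0.455. The median difference of all genes tested was 0.10 on this log2 scale, and TPM scaling turned the split to 281 higher and 292 lower. Other scalings gave 347 and 528 (quantile), 281 and 502 (median centring) and 290 and 546 (voom). All 12 oocyte markers passed the filter, with a summed FPKM of 9093 to 14188 in the controls and 11770 to 13514 with aminophylline. Of these 12, 3 were higher and 0 lower at an unadjusted limma p under 0.05, beside 4.41% and 2.84% of all genes tested. None passed after adjustment. With the library number as a block, described below, 1 passed after adjustment, beside 0.455% of all genes. The summed FPKM of granulosa and cumulus markers was 16.0 to 23.4 (8 of the 11 in the table were under 1 FPKM in every library), of theca and stroma markers 2.90 to 5.30, of endothelial markers 5.69 to 8.96 and of erythrocyte markers 0.0486 to 0.585. Macrophage markers summed to 241.9 in control 1 and to 83.7 to 104.4 in the other controls, against 84.1 to 102.7 with aminophylline, and their part in the results was not tested. In such pooled RNA, fewer cells of a type and less RNA per cell cannot be told apart.

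No ER stress or folding gene passed the test, and in none of the 10 did all libraries of one group lie above all of the other. Of the 9 genes tested, 6 had a higher mean with aminophylline (Ern1, Atf6, Atf4, Ddit3, Calr and Pdia6) and 3 a lower one (Canx, Pdia3 and Pdia4), with a median log2 difference of 0.39. Xbp1 stayed under the filter. The count with an unadjusted p under 0.05 was 0 of 9, against 4.41% of all genes tested that were higher and 2.84% that were lower at this limit. The count whose groups did not overlap was 0 of 10, against 12.5% of all genes tested.

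The labels do not say what the library numbers 1 to 3 mark. Control 3 and aminophylline 3 deviated alike (correlation 0.552), while the correlation was only 0.138 for number 1 and 0.140 for number 2. Aminophylline 1 was closer to control 2 (0.423). Libraries that deviate alike need not be paired, so pairing by number is uncertain, and most so for numbers 1 and 2. As an alternative, each difference was also fitted with the number as a block. Ern1, Atf4, Calr and Pdia6 then had an unadjusted p under 0.05, all 4 higher with aminophylline. This is 4 of 9 genes beside 9.88% of all genes tested that were higher and 4.3% that were lower in the same fit. None of the 9 passed after adjustment, where 0.455% of all genes did. Over all alternatives run, the adjusted p of these 9 genes lay between 0.129 and 0.999. limma voom on the recovered reads, without the block, likewise gave 0 of 9 genes under 0.05, adjusted or not. With a correction for GC content and transcript length in the blocked fit, Atf4, Calr and Pdia6 were under 0.05 and Ern1 was not, beside 5.87% of all genes higher.

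**Figure D1:**
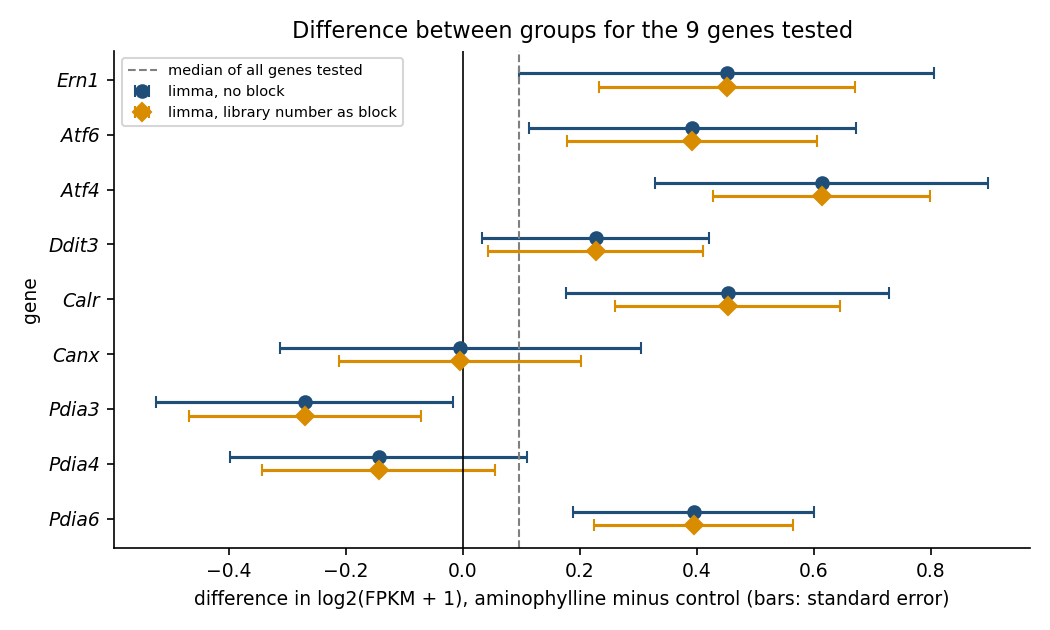
Difference in log2(FPKM + 1), aminophylline minus control, for the 9 genes tested, as points with standard errors from limma without (circles) and with (diamonds) the library number as a block. The dashed line is the median of all genes tested, 0.10. Atf4 has the largest difference of the 9, 0.61, and Pdia3 the most negative, -0.27.

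Ern1 (chr11:106397620-106487796, minus strand, RefSeq on GRCm38.p6 as for all 10) encodes IRE1, the sensor that is both kinase and nuclease. Its FPKM was 20.2, 10.7 and 27.6 in control 1, 2 and 3 and 16.4, 24.6 and 39.6 in aminophylline 1, 2 and 3. Number 3 was the highest library in both groups, and the groups overlapped. The means were 19.5 ± 8.50 in the control group and 26.9 ± 11.8 in the aminophylline group (SD of 3 libraries, as throughout). The log2 difference was 0.45 ± 0.355 (SE, as throughout for differences), with a limma p of 0.229 and an adjusted p of 0.757. With the block the p was 0.0492 and the adjusted p 0.349, and with the GC and length correction added the p was 0.173.

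Atf6 (chr1:170704457-170868585) encodes the sensor that is cut in the Golgi to release a transcription factor. It was read at 2.08, 1.58 and 3.52 FPKM in the controls and at 2.21, 3.57 and 4.55 with aminophylline. Each aminophylline library was above the control of the same number, although aminophylline 1 and 2 had values near control 1 and control 3. The means were 2.39 ± 1.01 and 3.44 ± 1.18, and the log2 difference was 0.39 ± 0.280 (limma p 0.188, adjusted p 0.733). The blocked p was 0.0782.

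The sensors stood at different levels. Within a library, Ern1 was 6.73 to 9.72 times the FPKM of Atf6 and 10.6 to 38.0 times that of Eif2ak3, which encodes PERK, the sensor that phosphorylates eIF2 alpha. Eif2ak3 had 0.531, 1.004 and 0.898 FPKM in the controls and 0.698, 0.705 and 1.10 with aminophylline, from 69 to 164 reads, and stayed under the filter. Thus Ern1 was the most abundant of the 3 sensor genes in every library, and Atf6 was 1.58 to 5.06 times Eif2ak3.

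Atf4 (chr15:80255184-80257545, plus strand) encodes the factor that is translated when eIF2 alpha is phosphorylated and that acts on amino acid and stress genes. The controls had 29.8, 42.8 and 72.3 FPKM, and the aminophylline libraries 54.6, 78.9 and 78.7. Only control 3 lay above the lowest aminophylline library. The means were 48.3 ± 21.8 and 70.7 ± 14.0. The log2 difference of 0.61 ± 0.285 had a limma p of 0.0543 and an adjusted p of 0.688, and each aminophylline library was above the control of its number. With the block the p was 0.00282 and the adjusted p 0.129, and with the correction added the p was 0.0133. These are levels of mRNA, and translation of ATF4 was not measured.

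Xbp1 (chr11:5520641-5525993, plus strand), the substrate of IRE1, was the lowest of the 10 genes. It had 0.489, 0.441 and 0.252 FPKM in the controls and 0.284, 0.395 and 0.422 with aminophylline, which came from 14 to 37 reads per library. The groups overlapped fully in this narrow range, with means of 0.394 ± 0.126 and 0.367 ± 0.0733 and an exact permutation p of 0.7. Ern1 was thereby 24.1 to 110 times as high per length as its substrate. Xbp1 was not tested with limma in the filtered set.

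Ddit3 (chr10:127290793-127296291, plus strand) encodes CHOP, a factor made under lasting ER stress. Its FPKM was 41.4, 50.5 and 31.2 in the controls and 49.3, 46.1 and 46.6 with aminophylline. Unlike the other 8 genes tested it was lowest, not highest, in control 3, and the aminophylline libraries lay within the range of the controls. The means were 41.0 ± 9.64 and 47.3 ± 1.72, and the log2 difference was 0.23 ± 0.194 (limma p 0.266, adjusted p 0.767). Ddit3 was 84.7 to 174 times Xbp1 within a library, although both encode transcription factors of the response.

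**Figure D2:**
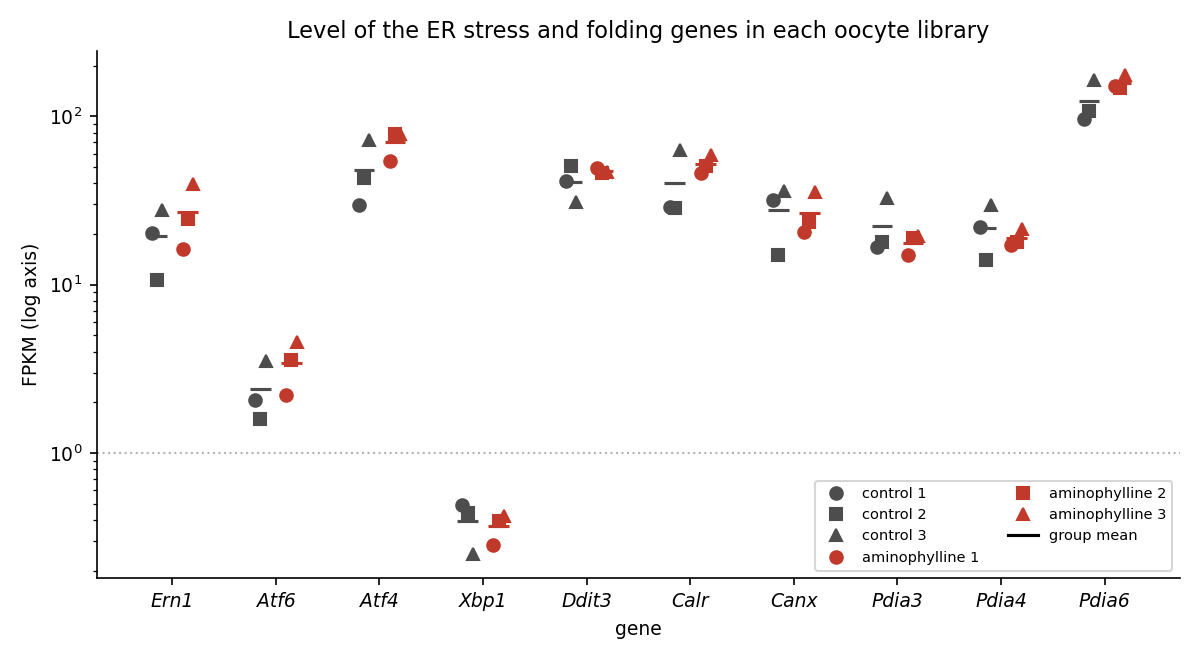
FPKM of the 10 genes (log axis) in each library, control in grey and aminophylline in red, with circles, squares and triangles for libraries 1, 2 and 3 and a line at each group mean. The dotted line is the FPKM of 1 used as filter, under which all 6 values of Xbp1 lie, and the groups overlap in every gene.

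Calr (chr8:84842088-84846931, minus strand) encodes calreticulin, the soluble lectin chaperone of the ER, which also binds calcium. The controls had 29.0, 28.6 and 63.2 FPKM and the aminophylline libraries 46.3, 50.7 and 58.8. Control 3 was the highest of all 6 libraries and the other controls were the lowest. The means were 40.3 ± 19.9 and 51.9 ± 6.37, with a log2 difference of 0.45 ± 0.276, a limma p of 0.130 and an adjusted p of 0.728. The blocked p was 0.0263, with an adjusted p of 0.283.

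Canx (chr11:50293957-50325673, minus strand) encodes calnexin, the membrane-bound counterpart of calreticulin. Its values were 31.7, 15.1 and 36.0 FPKM in the controls and 20.6, 23.6 and 35.4 with aminophylline. All aminophylline libraries lay within the range of the controls. The means were 27.6 ± 11.0 and 26.5 ± 7.81, and the log2 difference was -0.0039 ± 0.309 (limma p 0.990), a sign that turned with the GC and length correction. Both lectin genes carry the ERSE match shown above.

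Pdia6 (chr12:17266589-17284785, plus strand) encodes a disulfide isomerase that works with BiP and limits the activity of IRE1. It was the most abundant of the 10 genes, with 96.4, 108 and 165 FPKM in the controls and 150.5, 148 and 177 with aminophylline. Only control 3 reached into the aminophylline range. The means were 123 ± 37.0 and 158 ± 16.0, and each aminophylline library was above the control of its number. The log2 difference of 0.39 ± 0.206 had a limma p of 0.0813 and an adjusted p of 0.696, and the block gave 0.0284 and 0.288.

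Pdia3 (chr2:121413902-121438687, plus strand) encodes ERp57, the isomerase that acts on glycoproteins held by calreticulin and calnexin. The controls had 16.7, 17.9 and 32.8 FPKM and the aminophylline libraries 15.0, 18.8 and 19.3. Control 3 stood above all other libraries, and the remaining 5 lay close together. The means were 22.5 ± 8.97 and 17.7 ± 2.40, and the log2 difference was -0.27 ± 0.254 (limma p 0.311, adjusted p 0.784).

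Pdia4 (chr6:47796141-47813512, minus strand) encodes ERp72, another isomerase of the ER. It was read at 21.9, 13.9 and 29.7 FPKM in the controls and at 17.2, 18.0 and 21.5 with aminophylline, all of which lay within the control range. The means were 21.8 ± 7.87 and 18.9 ± 2.28, and the log2 difference was -0.14 ± 0.253 (limma p 0.581, adjusted p 0.889). Without control 3 the differences of Pdia3 and Pdia4 changed sign, to 0.025 and 0.10.

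By mean FPKM over the 6 libraries the order was Pdia6, Atf4, Calr, Ddit3, Canx, Ern1, Pdia4, Pdia3, Atf6 and Xbp1. Pdia6 was above 92.6% of all genes tested, Atf4 above 85.8%, and Atf6 above 28.9%. Pdia6 lay above Atf4, Pdia3 above Atf6 and Atf6 above Xbp1 in every library, without overlap of their ranges. Atf4 was also above Calr in all 6 libraries, though their ranges overlapped. Of the other neighbours, Ddit3 was above Canx in 5 libraries and Canx above Ern1 in 4, and the order of Calr over Ddit3 (3), Ern1 over Pdia4 (2) and Pdia4 over Pdia3 (3) held in no more than 3 of 6. Within a library Pdia6 was 5.04 to 10.1 times Pdia3 and 2.89 to 4.62 times P4hb, which encodes the founding disulfide isomerase of the family.

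Control 3 stood apart in these genes. It was the highest control in 8 of the 9 genes tested, beside 51.2% of all genes tested, and aminophylline 3 was the highest of its group in 7, beside 46.5%. Control 3 was at a median of 1.79 times the mean of the other controls over the 9 genes and 1.17 times over all genes, with 2.19 for Calr, 1.99 for Atf4, 1.90 for Pdia3 and 0.68 for Ddit3. For aminophylline 3 the median ratio was 1.21, and 1.07 over all genes, with the highest ratio in Ern1, 1.93. The spread of log2 values within groups also differed, though by little in Ern1 (control SD 0.66, aminophylline SD 0.61) and Atf6 (0.41 and 0.40). In both of these genes control 2 was the lowest control. On the log2 scale the SD of the controls was larger than that of the aminophylline libraries in 9 of 9 genes, beside 74.7% of all genes tested, with a median SD of 0.52 against 0.19 (0.30 and 0.19 over all genes).

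Without control 3, 4 genes had an unadjusted limma p under 0.05, all higher with aminophylline, beside 11.7% of all genes higher and 2.49% lower in that fit. These were Atf6 (0.62, p 0.0401), Atf4 (0.95, p 0.00154), Calr (0.82, p 0.000917) and Pdia6 (0.63, p 0.00336), where the first value is the log2 difference. Their adjusted p was 0.338, 0.255, 0.255 and 0.267. Without this library the groups did not overlap in these 4 genes and in Xbp1, which was lower with aminophylline, or 5 of 10 genes beside 31% of all genes in that fit. Leaving out aminophylline 1 gave 2 genes under 0.05 (Ern1 and Atf4, both higher), beside 5.22% of all genes higher and 1.62% lower. Leaving out control 2 gave 1 (Ddit3, higher), beside 8.32% and 7.29%, so that 1 of 9 was near the background. Other libraries moved these differences the opposite way. Without control 1 the log2 difference of Atf4 was 0.32 and that of Pdia6 0.24, and without control 2 that of Calr was 0.26 and that of Atf6 0.22. Ern1 ranged from 0.09 without control 2 to 0.75 without aminophylline 1, and was 0.14 without aminophylline 3. Ddit3 ranged from 0.05 without control 3 to 0.39 without control 2.

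**Figure D3:**
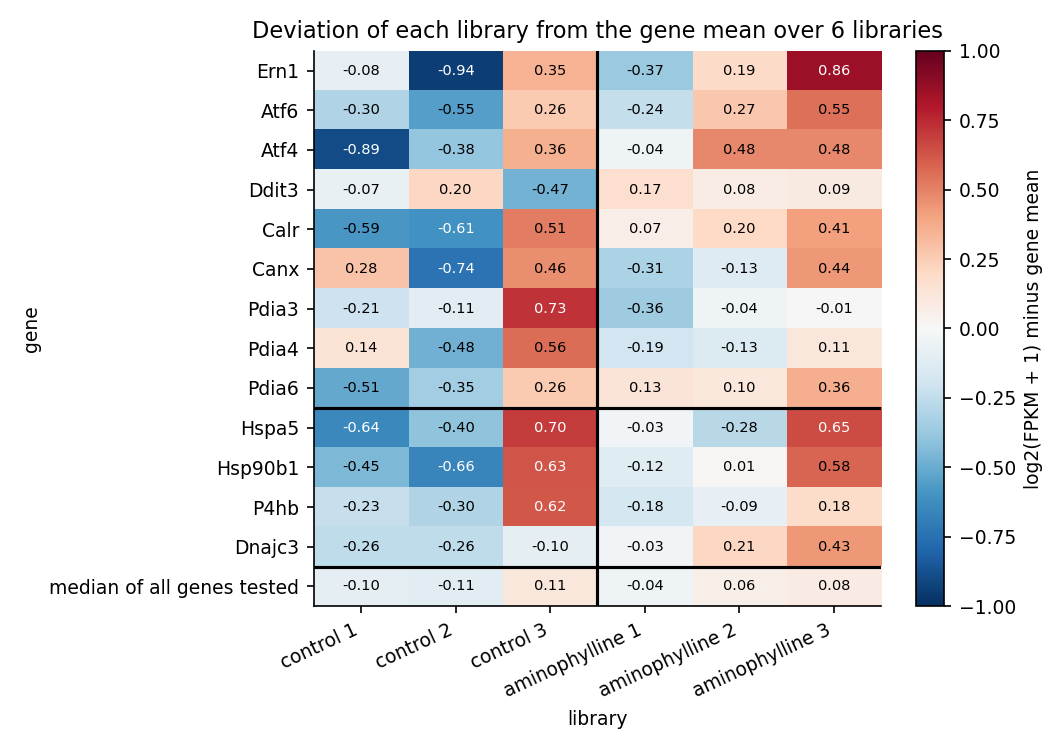
Deviation of log2(FPKM + 1) in each library (columns) from the gene's mean over the 6 libraries, for the 9 genes tested, for 4 further ER chaperone and isomerase genes and for the median of all genes tested (rows). Red is above and blue below the mean. Control 3 and aminophylline 3 are red in most rows, and Ddit3 is blue in control 3 (-0.47).

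A ratio of 2 genes within a library does not depend on how libraries are scaled. Of the 36 pairs among the 9 genes tested, 11 had ratios that did not overlap between groups, beside 13% of the 53452630 pairs of all genes tested. Pairs that share a gene are not independent, and the pairs named were chosen after their values were seen. In every one of the 11 pairs the lower-going side was Pdia3, Pdia4 or Canx. The 5 control and aminophylline ratios that follow each had an exact permutation p of 0.1 (two-sided), the smallest that 3 libraries against 3 can give. Any pair without overlap has this p, so it was fixed by the choice of pairs and adds no support.

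Pdia3 to Pdia6 was 0.173, 0.166 and 0.198 in the controls and 0.0994, 0.127 and 0.109 with aminophylline, means of 0.179 ± 0.0169 and 0.112 ± 0.0142. Pdia4 to Pdia6 was 0.228, 0.129 and 0.179 against 0.114, 0.122 and 0.122, with control 2 just above the aminophylline range. Relative to Pdia6, both isomerases were lower in each aminophylline library than in any control.

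Calr to Pdia3, a chaperone and the isomerase that works with it, was 1.74, 1.59 and 1.93 in the controls and 3.09, 2.69 and 3.04 with aminophylline. The means were 1.75 ± 0.167 and 2.94 ± 0.219, and control 3 lay near the other controls in this ratio. Atf4 to Pdia3 was 1.79, 2.39 and 2.20 against 3.65, 4.19 and 4.07, and Atf6 to Pdia3 was 0.125, 0.0883 and 0.107 against 0.148, 0.189 and 0.235. On the log2 scale of the FPKM ratio itself, with no pseudocount, the mean of the aminophylline libraries minus that of the controls was 0.75, 0.91 and 0.82, and -0.68 for Pdia3 to Pdia6. After the GC and length correction 7 of the 36 pairs had groups that did not overlap, all from the 11 and with these 5 among them. The share over all pairs of genes was not computed after this correction, so the 7 have no background beside them. The 4 lost were Ern1 to Canx, Ern1 to Pdia4, Atf6 to Canx and Atf6 to Pdia4.

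**Figure D4:**
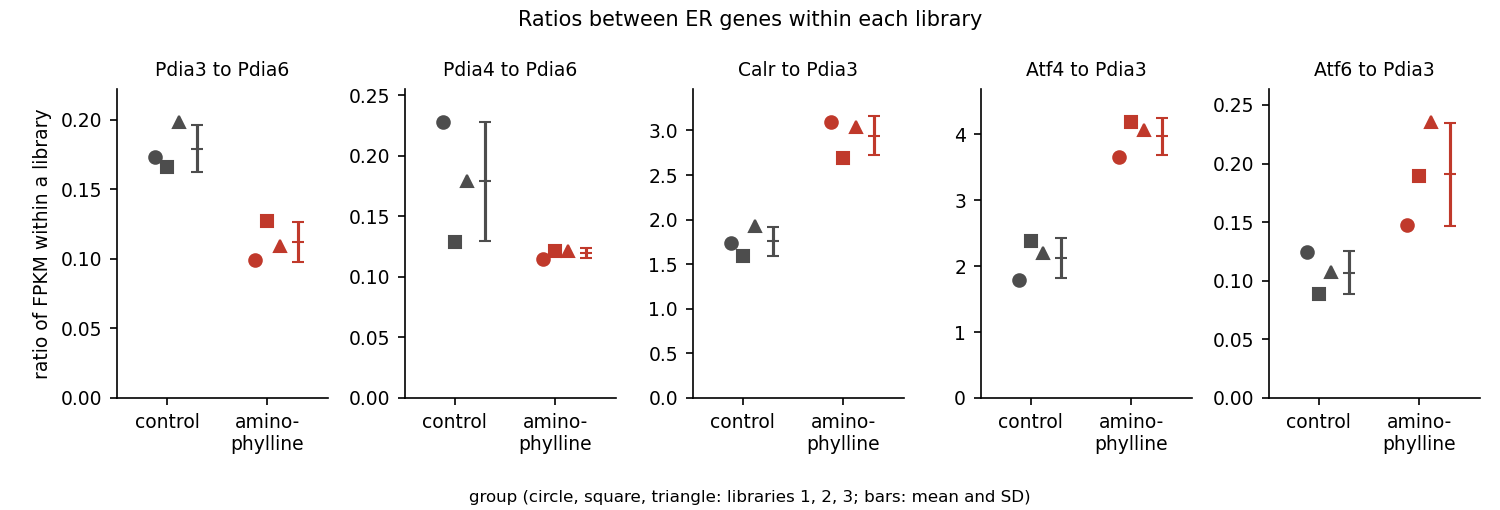
Ratio of FPKM within each library for 5 pairs of genes, control in grey and aminophylline in red, with circles, squares and triangles for libraries 1, 2 and 3 and bars for mean and SD. All axes start at 0. The 3 aminophylline libraries lie on one side of the 3 controls in each pair, with Calr to Pdia3 at 1.59 to 1.93 in controls and 2.69 to 3.09 with aminophylline.

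Pearson correlations were taken over the 6 libraries, which span both groups and differ in depth. The pairs of genes with the highest values were Calr with Pdia6 (0.97), Ern1 with Atf6 (0.95), Atf4 with Pdia6 (0.93) and Canx with Pdia4 (0.92). Ddit3 had negative correlations with every other gene tested. They were -0.91 with Pdia4, -0.88 with Pdia3, -0.69 with Canx, -0.42 with Calr and -0.41 with Ern1. With Atf6, Pdia6 and Atf4 they were -0.34, -0.22 and -0.15. Among 122 genes of ER folding and stress, the one most like each was Fam8a1 for Ern1 (0.985), Ddit4 for Atf6 (0.984), Syvn1 for Atf4 (0.986), Spcs1 for Ddit3 (0.993), Sec61a1 for Calr (0.984), Slc7a11 for Canx (0.982), Mcfd2 for Pdia3 (0.931), Ngly1 for Pdia4 (0.988) and Derl3 for Pdia6 (0.969). With 6 libraries and so many candidates these are descriptions only.

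The wider folding machinery was followed in 7 lists of 150 further genes, of which 148 were in the table and 114 were tested. At an unadjusted p under 0.05, 7 were higher (6.14%) and 2 lower (1.75%) with aminophylline, beside the 4.41% and 2.84% of all genes, and none passed after adjustment. The blocked fit gave 15 higher and 3 lower of the 114, beside 9.88% and 4.3% of all genes in that fit, again none after adjustment. The median log2 difference was 0.11, close to the 0.10 of all genes. The list medians ran from -0.05 for disulfide exchange to 0.22 for ER-associated degradation.

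BiP (Hspa5), the chaperone that binds the sensors and is the usual reporter of the response, had 14.9, 17.8 and 39.3 FPKM in the controls and 23.3, 19.4 and 38.0 with aminophylline. Number 3 was the highest in both groups, as in most of the 10 genes, and the groups overlapped (log2 difference 0.23, limma p 0.519, adjusted p 0.865). Over the alternatives this difference ran from -0.04 to 0.63. Hsp90b1, the ER form of HSP90, was 1.37 to 2.03 times Hspa5 and differed by 0.32 (limma p 0.330), or 0.07 to 0.71 over the alternatives. With the GC and length correction and the block its limma p was 0.0171 and the adjusted p 0.266. P4hb differed by -0.05 (limma p 0.830), or -0.22 to 0.24 over the alternatives.

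In the list of the BiP system, of 17 genes tested, 2 were higher at this limit and 0 lower. Dnajc3, a BiP cochaperone that also restrains PERK, had 40.8, 40.9 and 45.7 FPKM in the controls and 48.0, 56.6 and 66.5 with aminophylline, without overlap (0.41, limma p 0.0396, adjusted p 0.682). Creld2, a stress-induced ER protein, had means of 236 ± 30.9 and 332 ± 80.0 (0.47, limma p 0.0375), and with the GC and length correction its p was 0.147.

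In the eIF2 branch, 1 of 21 genes was higher and 1 lower. The gene higher was Phgdh, the first enzyme of serine synthesis and a target of ATF4, at 13.3 ± 1.39 and 19.9 ± 2.38 FPKM (0.55, limma p 0.0144), and with the GC and length correction its p was 0.0552 at a difference of 0.33. The gene lower was Eif2s1, which encodes eIF2 alpha, at 84.8 ± 21.5 and 59.1 ± 2.84 (-0.48, limma p 0.0348). Among the other sensors and factors of the response, 0 of 7 were past the limit in either direction and the median was 0.0017.

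In the lectin and glycan cycle 1 of 12 genes was higher, Prkcsh, which encodes the beta subunit of glucosidase II, the enzyme that trims glycans for calnexin and calreticulin. Its means were 1.55 ± 0.189 and 3.31 ± 0.526 FPKM, without overlap (0.75, limma p 0.00366, adjusted p 0.651). In disulfide exchange 1 of 13 was lower, Erp44, which retains proteins in the early secretory pathway, at 30.0 ± 6.92 and 19.8 ± 2.74 (-0.56, limma p 0.0226). Ero1a, an oxidase that recharges the isomerases, was under the filter at 0.612, 0.609 and 0.598 in the controls and 0.417, 0.539 and 0.577 with aminophylline. Its aminophylline libraries were all below the controls, by a margin of few reads (38 to 91 per library).

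In ER-associated degradation 1 of 21 genes was higher, Os9, a lectin that delivers misfolded glycoproteins to disposal, at 8.77 ± 2.43 and 14.2 ± 1.18 FPKM (0.67, limma p 0.0118), a difference of 0.38 with the correction. In the translocon and glycosylation list 2 of 23 were higher. These were Sec62, at 49.9 ± 2.46 and 67.5 ± 2.30 (0.43, limma p 0.0166), and Sec61g, at 487 ± 86.4 and 634 ± 32.2 (0.39, limma p 0.0352), both of the machinery by which proteins enter the ER. With the correction the difference of Sec61g was 0.23 (limma p 0.0590). The adjusted p of Phgdh, Eif2s1, Erp44, Os9, Sec62, Sec61g and Creld2 lay between 0.664 and 0.682. In limma voom without the block, the p was 0.0902 for Sec62, 0.169 for Sec61g, 0.112 for Dnajc3 and 0.0960 for Creld2. Phgdh, Eif2s1, Prkcsh, Erp44 and Os9 kept an unadjusted voom p under 0.05.

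**Figure D5:**
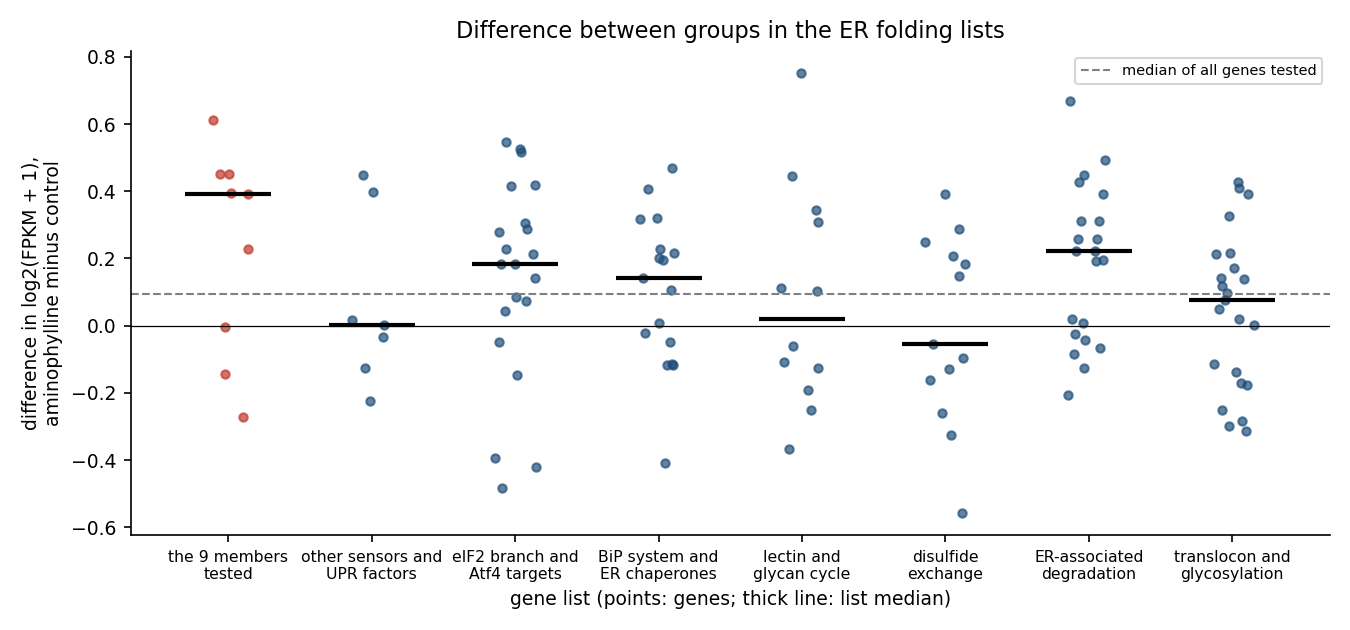
Difference in log2(FPKM + 1), aminophylline minus control, of each gene tested (points) in the 10-gene set and in 7 lists of the ER folding machinery, with a thick line at the median of each. The dashed line is the median of all genes tested, 0.10. The 9 genes tested of the set have a median of 0.39, and the list medians lie between -0.05 and 0.22.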

How the data were processed

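RNA of mouse oocytes was sequenced in 3 control and 3 aminophylline libraries, grouped by the labels. The authors deposited FPKM per gene. The labels name the build GRCm38 (mm10), while aligner, counter, annotation, strand setting and handling of reads shared by gene copies are not given in the sources used here. The whole reads behind the FPKM were recovered from ratios between libraries (whole for 100% of the 22583 genes that 2 or more libraries list above 0, tolerance 1e-06).

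Genes reaching FPKM 1 in 3 or more of 6 libraries were tested two-sided with limma 3.58.1 (R 4.3.3, trend) on log2(FPKM + 1), a scale that understates changes of low genes, with Benjamini-Hochberg adjustment over all 10340. All p-values in the text are from limma or an exact permutation test. The study's methods name an unpaired t test. limma without a block took its place, and the unmoderated linear model was an alternative. Nothing states separate mice for the libraries, so p-values measure only the spread between these samples, which may be technical. The numbers 1 to 3 in the labels were checked for pairing: same-numbered libraries had correlations of their deviations of 0.138, 0.140 and 0.552, while aminophylline 1 correlated more with control 2 (0.423). The number was then fitted as a block. GC content came from GENCODE M21 transcripts, for 91.9% of genes tested and for all 9 of the genes described that were tested. The tests were checked on simulated data with 4-fold changes, larger than any difference of the 9 genes. No effect of the library number was simulated. At an adjusted p under 0.05, limma without the block found 185 of 185 changed genes and called 14 others. With the block it found 185 and called 32 others. The simulated spread was a single preset value for all genes and was not fitted to these libraries. Changes were placed only in genes with many reads. So the check does not show that 4-fold changes would be found in these data, nor which smaller changes would be.

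The 10 genes and all lists were chosen with earlier results of these data known. Further genes named are Hspa5, Hsp90b1, Eif2ak3, Ero1a, P4hb and Dnajc3, up to 3 higher and 3 lower per list with the smallest unadjusted p under 0.05, and the gene most correlated with each of the 9. Other alternatives were the pseudocount, filters, scalings, library weights, voom on recovered reads, and leaving out each library. Python 3.11.15 made the summaries.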

Additional observations from a re-analysis of the deposited data

How the results depend on the processing

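None of the 9 sensor, factor, lectin and isomerase genes tested had an adjusted p under 0.05 in limma under any of the 20 alternatives, and Atf4 had the smallest of these 9, 0.129 with the block. Of 179 differences of single genes, 147 kept their direction and side of an unadjusted p of 0.05, 22 kept their direction and passed it, and 10 changed sign. The 0 of these genes with an unadjusted p under 0.05, beside 7.25% of all genes, became 4 with the block (14.2% of all genes), 3 with library weights (19.4%), 1 with the GC and length correction (8.85%), 3 with that correction and the block (13.7%), 1 with voom and the block (13.8%), and 0 to 4 when 1 library was left out (3.16% to 15.6%). Without both number 3 libraries, an alternative chosen after seeing the data, there were 3 (7.02%). The 9 such genes of the ER lists became 18 with the block, 23 with library weights, 17 with the correction and the block, 16 with voom and the block, and 3 to 23 with 1 library left out (23 without control 3, 15 without control 2, 3 and 5 without aminophylline 2 and 3). The count over all genes moved too, from 750 to 1467, 2011, 1300 and 1422 in the first 4 of these fits. Genes whose groups did not overlap numbered 0 to 5 of 10 with 1 library left out, where the share of all genes was 18.3% to 31.8%. The 11 pairs became 7 with the correction, also chosen after seeing the data, and the share of all pairs was not computed with it. Canx was 0.042 with the correction, with or without the block, -0.37 to 0.23 with 1 library left out, and 0.0067 without both number 3 libraries. Leaving out 1 library gave -0.44 to 0.025 for Pdia3 and -0.42 to 0.10 for Pdia4, which was 0.0074 without both. The cause was not tested. TPM, quantile and median scaling, the pseudocount, the filters, the unmoderated model and voom without the block changed none of the signs of the 9 genes. Depth was least for Xbp1, at 14 to 37 reads, and counting error was not compared with the spread between libraries.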
